A study of Homo sapiens with 12 samples.

Results

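The 9 genes described here act in mitophagy, the removal of mitochondria by autophagy. They are PINK1, SQSTM1, OPTN, CALCOCO2, BNIP3, BNIP3L, FUNDC1, PHB2 and FKBP8, and they were taken by name from a count table of 58735 genes. Each name matched a single row, and all 9 were among the 16702 genes with enough counts to be tested. The 12 RNA sequencing libraries came from Beas-2b cells, an immortalised line derived from human bronchial epithelium, in a study of ANT1 in pulmonary fibrosis. ANT1, encoded by SLC25A4, carries ADP into mitochondria and ATP out of them, and this translocase has been linked to the PINK1 pathway of mitophagy.

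The 4 groups, with 3 libraries each, were ANT1 knockout (KO) cells with bleomycin, KO cells in control medium, wild type (WT) cells with bleomycin, and WT cells in control medium. Knockout clones had been made with CRISPR, and how many clones the KO libraries came from is not stated in the labels, so that clone and genotype cannot be told apart. Bleomycin, an agent that breaks DNA, was given for 2 days at a dose labelled 10 mg/ml to bring on senescence. That unit may be a slip for µg/ml, which the files do not settle. The series describes the 3 libraries of a group as biological replicates without saying whether they were separate cultures, so the p-values measure the spread between these libraries, which may in part be technical.

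In mitophagy, a damaged or surplus mitochondrion is tagged and then enclosed in an autophagosome, whose membrane carries proteins of the ATG8 family such as LC3. In the ubiquitin route the kinase PINK1 builds up on depolarised mitochondria and sets off the tagging of their outer membrane with ubiquitin, and the soluble receptors SQSTM1 (p62), OPTN (optineurin) and CALCOCO2 (NDP52) bridge ubiquitin and ATG8 proteins. In the receptor route, proteins of the outer mitochondrial membrane, among them BNIP3, BNIP3L (NIX), FUNDC1 and FKBP8, bind ATG8 proteins directly, and PHB2 (prohibitin 2) does so from the inner membrane once the outer one has ruptured. BNIP3 and BNIP3L are known for their induction by hypoxia, and SQSTM1 both binds the NRF2 repressor KEAP1 and is itself a target of NRF2 in many cells.

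Library totals ran from 15.75 to 21.92 megacounts. Members' values below are CPM, counts per megacount of a library scaled by the trimmed mean of M-values (TMM), and fold changes and adjusted p-values are from edgeR's quasi-likelihood test with Benjamini-Hochberg adjustment over all 16702 tested genes, with a threshold of 0.05. SLC25A4, the targeted gene, averaged 4.60 ± 0.462 CPM in KO cells with bleomycin and 5.62 ± 1.18 in KO control, against 22.0 ± 5.71 in WT cells with bleomycin and 19.2 ± 3.22 in WT control (SD, n = 3 each). It was 4.78-fold lower in KO cells with bleomycin (edgeR adjusted p = 0.000904) and 3.42-fold lower in KO control (adjusted p = 0.0111). Keratins KRT7, KRT8 and KRT18 were abundant in every library, at no less than 117 CPM. KRT17, at 62.9 to 158 CPM, and KRT19, at 15.5 to 76.3 CPM, were present in every library too. In both genotypes the means of KRT7, KRT17 and KRT19 were higher with bleomycin, and those of KRT8 and KRT18 lower. KRT19 averaged 62.0 CPM in KO and 62.2 in WT cells with bleomycin, against 21.3 and 17.9 in control medium. KRT18 averaged 150 and 130 CPM with bleomycin, against 287 and 263 in control medium. The other 5 of the 10 markers of bronchial epithelium were at or near 0: KRT14 reached at most 0.172 CPM, KRT5 0.481, TP63 0.917, EPCAM 2.49 and CDH1 2.96.

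KO control replicate 2 stood apart from the other 11 libraries, and its values touch several results below. Mitochondrial genes held 0.364% of its counts, against 3.86% to 5.13% in the others. COL1A1, a collagen gene that marks fibroblasts, was at 3474 CPM in it, against 463 to 1200 CPM in the others. The summed CPM of 8 fibroblast markers was 693 to 917 in KO bleomycin, 942 to 3660.4 in KO control, 769.5 to 802 in WT bleomycin and 925 to 1559 in WT control, with LUM at 0 in every library. In KO control replicates 1 to 3, COL1A1 held 556, 3474 and 707 CPM of sums of 942, 3660.4 and 1079. The other markers together were thus lowest in replicate 2. With bleomycin PDGFRB averaged 11.5 CPM in KO and 8.50 in WT cells, against 44.1 and 44.3 in control medium. THY1 averaged 209 CPM in KO and 184 in WT cells with bleomycin. In control medium it averaged 264 CPM in KO cells, with a range of 134 to 339, and 325 in WT cells. COL1A2 went the other way, at 11.9 and 14.6 CPM with bleomycin, against 6.71 and 3.72 in control medium. COL3A1, DCN and PDGFRA never passed 0.321 CPM. The 8 leukocyte markers summed to 7.43 to 11.5 CPM in KO bleomycin, 30.0 to 41.0 in KO control, 7.85 to 8.65 in WT bleomycin and 19.6 to 23.9 in WT control, while the pan-leukocyte gene PTPRC never passed 0.427 CPM. CD14 made up most of these sums in control medium, and 2 of the 8 differed with bleomycin in opposite directions: CD14 averaged 3.71 CPM in KO bleomycin, against 34.1 in KO control, and 2.16 in WT bleomycin, against 21.3 in WT control, and ITGAM averaged 4.78 CPM in KO bleomycin, against 0.036 in KO control, and 5.42 in WT bleomycin, against 0 in WT control. The 6 endothelial markers summed to 3.42 to 4.09 CPM in KO bleomycin, 3.83 to 4.23 in KO control, 3.15 to 3.66 in WT bleomycin and 2.34 to 3.68 in WT control. The part of these cell type markers in the results was not tested.

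Promoter sequences show which members carried short motifs tied to hypoxia, oxidative stress and lysosomal genes in the 250 bases before a start of transcription. The search used RefSeq starts on GRCh38.p14 of 6 members, namely BNIP3, CALCOCO2, SQSTM1, OPTN, PHB2 and FUNDC1, with 10 starts in all. PINK1, BNIP3L and FKBP8 were not searched. The motifs searched, on both strands, were ACGTG, the core of the hypoxia response element, TGACNNNGC, the core of the antioxidant response element, and CACGTG, the core of the lysosomal CLEAR element, which contains ACGTG. The lines below show the upstream stretch of BNIP3, the member that fell most. They also show the matching stretch of CALCOCO2, the other searched member with a match, and that of the first SQSTM1 start, for the member that rose. Bases inside an annotated exon of the gene were left out, and capitals mark the motif matches, read 5′ to 3′ on the strand of the gene.
BNIP3, chr10:131982014-131982173, minus strand: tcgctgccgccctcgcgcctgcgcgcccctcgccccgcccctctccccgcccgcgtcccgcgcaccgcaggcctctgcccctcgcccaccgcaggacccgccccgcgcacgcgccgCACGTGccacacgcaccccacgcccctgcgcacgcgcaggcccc
CALCOCO2, chr17:48830785-48830987, plus strand: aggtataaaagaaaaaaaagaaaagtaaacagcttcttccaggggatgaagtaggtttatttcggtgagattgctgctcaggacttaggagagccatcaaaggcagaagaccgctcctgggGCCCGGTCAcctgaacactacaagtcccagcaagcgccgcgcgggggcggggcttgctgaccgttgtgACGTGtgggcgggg
SQSTM1, chr5:179806143-179806392, plus strand: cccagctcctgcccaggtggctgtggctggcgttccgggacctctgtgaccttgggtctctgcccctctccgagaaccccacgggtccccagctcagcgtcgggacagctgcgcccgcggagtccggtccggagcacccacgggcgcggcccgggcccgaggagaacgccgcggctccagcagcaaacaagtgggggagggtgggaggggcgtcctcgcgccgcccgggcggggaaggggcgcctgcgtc
BNIP3 held CACGTG, which reads the same on both strands, with its first base 134 bases before the start. CALCOCO2 held ACGTG from 61 bases before its start and, on the opposite strand, TGACNNNGC from 129 bases before it. No match was present in these windows of SQSTM1 (at 3 starts), OPTN, PHB2 or FUNDC1. The third SQSTM1 window, at chr5:179820655-179820904, lies downstream of the one shown. Counts per gene do not tell which start was used. Over all 35116 RefSeq promoters, the same 250 bases held ACGTG in 18.5%, TGACNNNGC in 10.9% and CACGTG in 6.34%, and a match describes the letters only.

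Bleomycin was followed by a higher level of 1 member, SQSTM1, and lower levels of the outer membrane receptors BNIP3, BNIP3L and FKBP8, in KO and in WT cells. CALCOCO2 also fell in WT cells. PINK1, OPTN, FUNDC1 and PHB2 did not pass the test in either genotype. In KO cells 4 of the 9 members were called, 1 higher and 3 lower, against 43.2% of all tested genes (22.5% higher and 20.7% lower). In WT cells 5 of the 9 were called, 1 higher and 4 lower, against 43.5% of all tested genes (23.9% higher and 19.6% lower). The share of members called was thus near that of all genes. The median log2 fold change of the members was -0.13 in KO cells and -0.23 in WT cells, beside 0.00 and 0.02 over all tested genes. Because these are bulk libraries, fewer cells of a type and less RNA per cell cannot be told apart in any of these values.

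**Figure D1:**
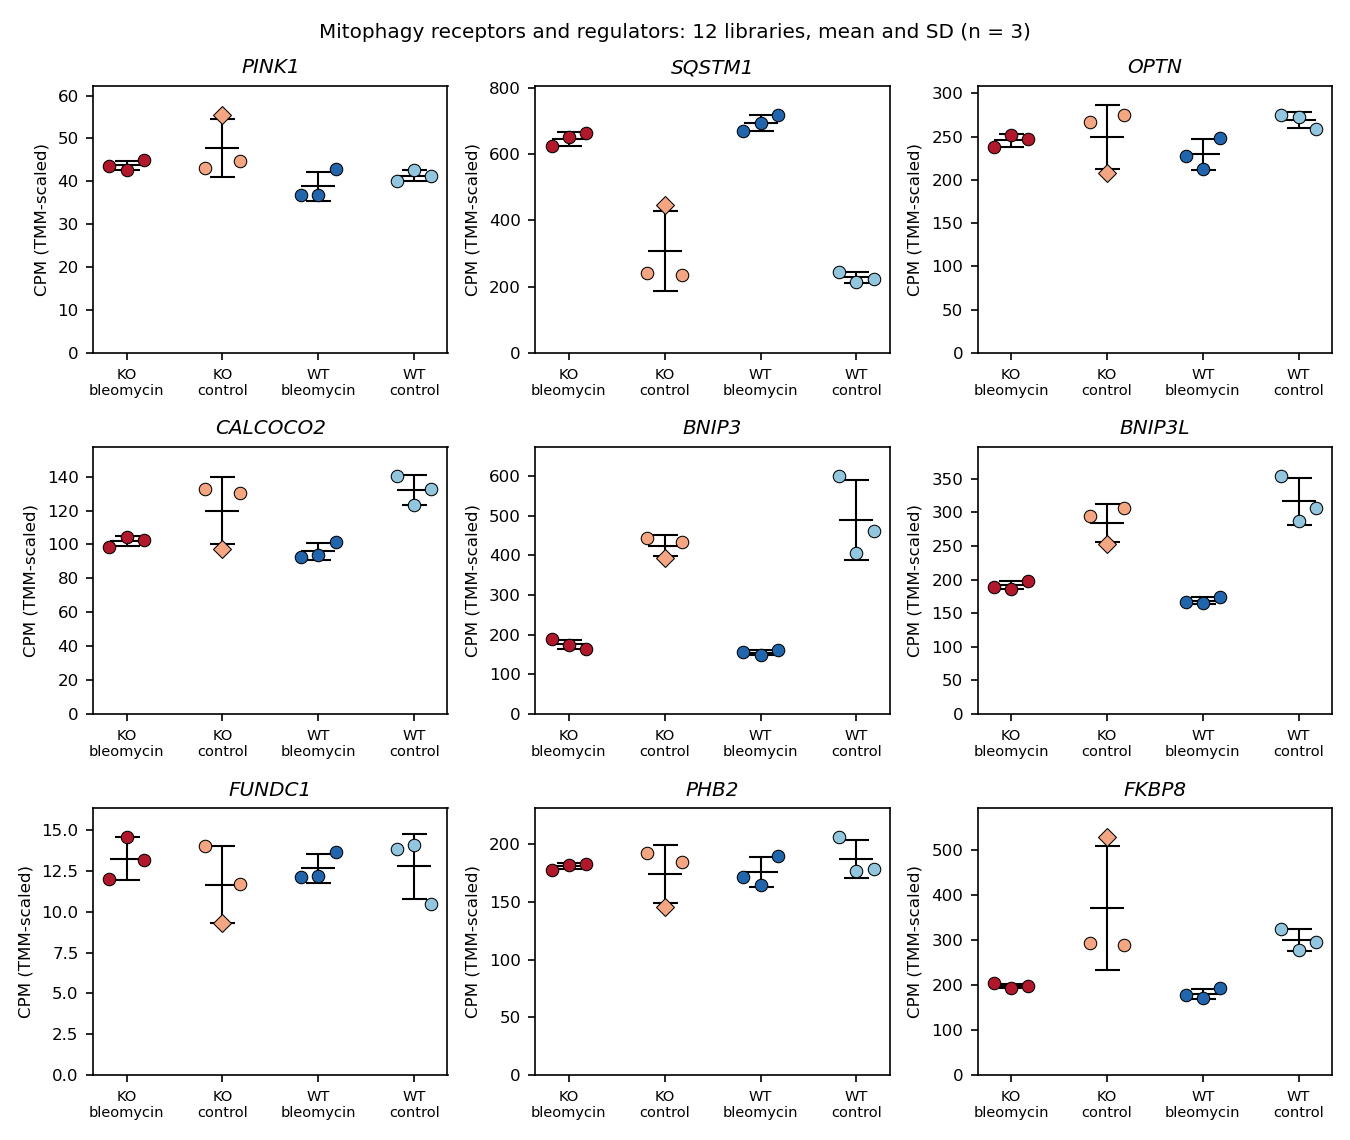
CPM of each of the 9 genes in each of the 12 libraries (points), with the mean and SD of the 3 libraries of a group; the groups run from KO bleomycin, KO control and WT bleomycin to WT control, and the diamond is KO control replicate 2. SQSTM1 lies at 623 to 719 CPM in the 6 bleomycin libraries and at 446 CPM or below in the 6 control libraries, and BNIP3 at 188 CPM or below with bleomycin and 394 CPM or above without.

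PINK1 showed little movement. Its CPM was 43.5, 42.7 and 44.9 in KO bleomycin and 43.1, 55.6 and 44.7 in KO control. In WT cells it was 36.9, 36.8 and 42.8 with bleomycin and 39.99, 42.6 and 41.2 in control medium. The bleomycin and control libraries overlapped in both genotypes, and the single high value belonged to KO control replicate 2. The log2 fold change was -0.13 (interval of ±2 SE, -0.34 to 0.09) in KO cells and -0.09 (-0.30 to 0.13) in WT cells, with edgeR adjusted p of 0.363 and 0.548. Without KO control replicate 2 the value in KO cells was -0.01 (adjusted p = 0.931). PINK1 shares 1907 exon bases, 39.4% of its own, with the antisense gene PINK1-AS. Counts of PINK1-AS came to 17.03% of those of PINK1. PINK1-AS rose in KO cells with bleomycin (log2 fold change 0.57, edgeR adjusted p = 0.0359) and did not pass in WT cells (0.24, adjusted p = 0.355). Whether counting used strand is not stated, so the reads of this pair may be mixed.

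SQSTM1 was the member that rose. KO bleomycin libraries held 623, 652 and 664 CPM, against 243, 446 and 234 CPM in KO control. WT bleomycin libraries held 669, 693 and 719 CPM, against 245, 214 and 224 CPM in WT control. Every bleomycin library lay above every control library, the nearest control being KO control replicate 2. The increase was 2.10-fold in KO cells (log2 fold change 1.07, SE 0.19, edgeR adjusted p = 0.000667) and 3.04-fold in WT cells (1.61, SE 0.20, adjusted p = 2.34e-05). Without KO control replicate 2 the log2 fold change in KO cells was 1.44 (adjusted p = 7.00e-12). SQSTM1 shares 1582 exon bases, 20.7% of its own, with MRNIP on the other strand, whose counts were 5.92% of those of SQSTM1 and which rose by 0.47 in KO and 0.50 in WT cells on the log2 scale (adjusted p = 0.0273 and 0.0194). A further neighbour on the other strand, MGAT4B, shares 105 exon bases, 1.37% of those of SQSTM1. Its counts equalled 71.6% of those of SQSTM1, and it did not pass the test in either genotype. Reads of these genes may be mixed in part.

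Of the other soluble receptors, CALCOCO2 fell in WT cells and OPTN did not pass the test. OPTN was at 238, 252 and 247 CPM in KO bleomycin, against 266, 207 and 275 CPM in KO control, and these ranges overlapped. In WT cells it was at 227, 212 and 249 CPM with bleomycin, against 275, 273 and 259 CPM in control medium, with no overlap. The log2 fold change of OPTN was -0.02 (±2 SE interval -0.24 to 0.19, edgeR adjusted p = 0.878) in KO cells and -0.23 (-0.44 to -0.02, adjusted p = 0.0971) in WT cells. CALCOCO2 was at 98.5, 104 and 103 CPM in KO bleomycin, against 133, 97.1 and 130.1 CPM in KO control. Only KO control replicate 2 was not above the bleomycin values, lying just below them. In WT cells CALCOCO2 held 92.4, 94.0 and 102 CPM with bleomycin, all below the 141, 123 and 132 CPM of WT control. It fell 1.38-fold in WT cells (log2 fold change -0.46, SE 0.11, edgeR adjusted p = 0.00456), and had a log2 fold change of -0.24 (SE 0.11, adjusted p = 0.105) in KO cells. Without KO control replicate 2, OPTN in KO cells was at -0.14 (edgeR adjusted p = 0.125). CALCOCO2 then passed in KO cells too (-0.37, adjusted p = 0.000289), as did OPTN in WT cells (-0.23, adjusted p = 0.00605), whose own libraries were unchanged and whose SE was 0.07 in place of 0.11.

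BNIP3 had the largest fall of the 9. It was at 188, 174 and 164 CPM in KO bleomycin, against 443, 394 and 434 CPM in KO control. WT bleomycin libraries held 156, 149 and 161 CPM, against 601, 405 and 461 CPM in WT control. The groups did not overlap in either genotype, and WT control replicate 1 was the highest library of all. BNIP3 fell 2.42-fold in KO cells (log2 fold change -1.27, SE 0.13, edgeR adjusted p = 4.22e-06) and 3.15-fold in WT cells (-1.66, SE 0.13, adjusted p = 3.04e-07). The antisense gene AL162274.1, which shares no exon base with BNIP3, fell as well, with log2 fold changes of -1.45 in KO cells and -1.85 in WT cells (adjusted p = 0.0014 and 0.000189).

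BNIP3L, the closest relative of BNIP3, fell with it and by less. KO bleomycin libraries held 189.6, 187 and 198 CPM, against 294, 253 and 307 CPM in KO control. WT bleomycin libraries held 167, 165 and 175 CPM, against 355, 288 and 306 CPM in WT control. No bleomycin library reached the level of any control library. The fall was 1.49-fold in KO cells (log2 fold change -0.57, SE 0.10, edgeR adjusted p = 0.000451) and 1.87-fold in WT cells (-0.91, SE 0.10, adjusted p = 7.78e-06). PNMA2 shares 330 exon bases with BNIP3L, 7.66% of those of BNIP3L, holds counts equal to 22.1% of it, and fell by 1.17 in KO and 1.31 in WT cells on the log2 scale, so the pair may be mixed in part.

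FKBP8, an immunophilin of the outer membrane that recruits LC3, was the third receptor to fall. It was at 204, 194 and 197 CPM in KO bleomycin, against 293, 531 and 289.7 CPM in KO control. WT bleomycin libraries held 178, 172 and 194 CPM, against 326, 278 and 297 CPM in WT control. The groups were separate in both genotypes, with KO control replicate 2 far above its own group. The fall was 1.87-fold in KO cells (log2 fold change -0.90, SE 0.19, edgeR adjusted p = 0.00176) and 1.66-fold in WT cells (-0.73, SE 0.19, adjusted p = 0.00651). Leaving out KO control replicate 2 brought the KO value to -0.56 (adjusted p = 4.46e-06).

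FUNDC1 and PHB2 did not pass the test. FUNDC1, a receptor known from hypoxic mitophagy, was the least abundant member in CPM, at 12, 14.6 and 13.2 CPM in KO bleomycin and 14.0, 9.33 and 11.7 CPM in KO control. It held 12.1, 12.2 and 13.7 CPM in WT bleomycin and 13.8, 14.1 and 10.5 CPM in WT control, with overlap throughout. Its log2 fold change was 0.19 (±2 SE interval -0.14 to 0.51) in KO cells and -0.02 (-0.34 to 0.31) in WT cells. Changes within these intervals were thus not excluded. The libraries held 150 to 310 counts of FUNDC1 each, and its coefficient of variation (CV) within a group was 6.86% to 20.1%. Without KO control replicate 2 the value in KO cells was 0.05 (edgeR adjusted p = 0.813). PHB2 was at 178, 182 and 183 CPM in KO bleomycin, against 192, 145 and 184 CPM in KO control. In WT cells it was at 172, 165 and 189.9 CPM with bleomycin, against 206, 177 and 179 CPM in control medium. These ranges overlapped in both genotypes. PHB2 had log2 fold changes of 0.06 (-0.16 to 0.28) in KO cells and -0.09 (-0.31 to 0.12) in WT cells, and -0.06 in KO cells without KO control replicate 2.

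**Figure D2:**
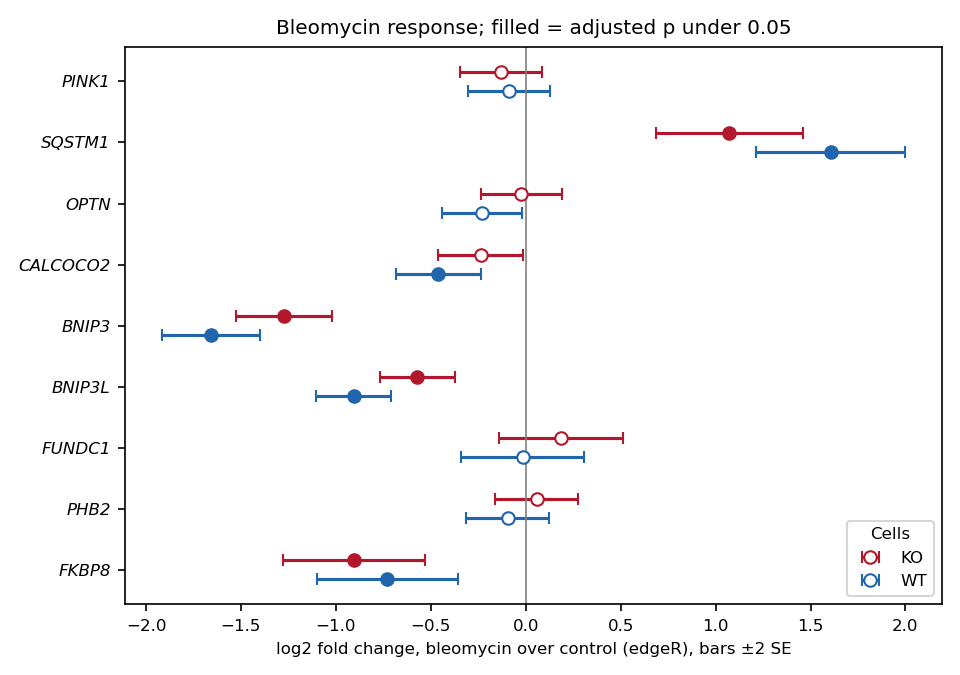
Log2 fold change of bleomycin over control for each of the 9 genes in KO and in WT cells, with bars of ±2 SE; filled points have an edgeR adjusted p under 0.05. SQSTM1 lies to the right of 0 at 1.07 in KO and 1.61 in WT cells, BNIP3, BNIP3L and FKBP8 lie to the left, and the bars of PINK1, FUNDC1 and PHB2 cross 0.

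Counted by whether the 3 libraries of each group overlapped, 4 members were separate in KO cells and 6 in WT cells, beside 51.3% and 61.3% of all tested genes. Without KO control replicate 2, edgeR called 5 members in KO cells (1 higher, 4 lower) and 6 in WT cells (1 higher, 5 lower). All tested genes then had 48.4% called in KO cells and 56.6% in WT cells.

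Levels between genes were compared in FPKM, which is per length. The length used was that of all annotated exons of a gene together. It was 7654 bases for SQSTM1, 8333 for CALCOCO2, 2499 for PHB2 and 1399 for FUNDC1. A single transcript can be shorter, so ranks and ratios between genes depend on this length, and no other length was tried. With bleomycin SQSTM1 had the highest FPKM of the 9, at 83.5 ± 3.18 in KO cells and 89.7 ± 3.47 in WT cells (SD, n = 3 each). In control medium FKBP8 had the highest mean, at 127 ± 47.5 FPKM in KO cells, where KO control replicate 2 raised it, and 103 ± 8.53 FPKM in WT cells. SQSTM1 was then sixth in both genotypes, at 40.03 ± 15.6 FPKM in KO control and 29.7 ± 2.18 FPKM in WT control.
The order of the others with bleomycin was the same in KO and WT cells. In KO bleomycin, PHB2 (71.6 FPKM), FKBP8 (67.6), OPTN (47.3), BNIP3L (43.9), BNIP3 (32.6), CALCOCO2 (12.1), FUNDC1 (9.39) and PINK1 (8.94) followed SQSTM1, and the libraries of OPTN and BNIP3L and of FUNDC1 and PINK1 overlapped. In WT bleomycin they ran PHB2 (69.5 FPKM), FKBP8 (61.9), OPTN (44.2), BNIP3L (38.8), BNIP3 (28.8), CALCOCO2 (11.4), FUNDC1 (8.97) and PINK1 (7.95), with overlap between PHB2 and FKBP8 and between FUNDC1 and PINK1. CALCOCO2, FUNDC1 and PINK1 thus formed the low end.
In control medium more neighbours overlapped. KO control ran FKBP8, BNIP3 (79.3 FPKM), PHB2 (69.3), BNIP3L (65.8), OPTN (48.4), SQSTM1, CALCOCO2 (14.3), PINK1 (9.84) and FUNDC1 (8.32), and BNIP3, PHB2 and BNIP3L could not be separated in turn, nor OPTN from SQSTM1, nor PINK1 from FUNDC1. Over KO control replicates 1 and 3 alone, FKBP8 was at 99.96 FPKM and SQSTM1 at 31.0 FPKM, in the same ranks, and FUNDC1 (9.15 FPKM) stood above PINK1 (9.04). WT control ran FKBP8, BNIP3 (91.5 FPKM), PHB2 (74.7), BNIP3L (73.2), OPTN (52.2), SQSTM1, CALCOCO2 (15.8), FUNDC1 (9.12) and PINK1 (8.50), and each of the first 4 overlapped its neighbour, as did FUNDC1 and PINK1.

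**Figure D3:**
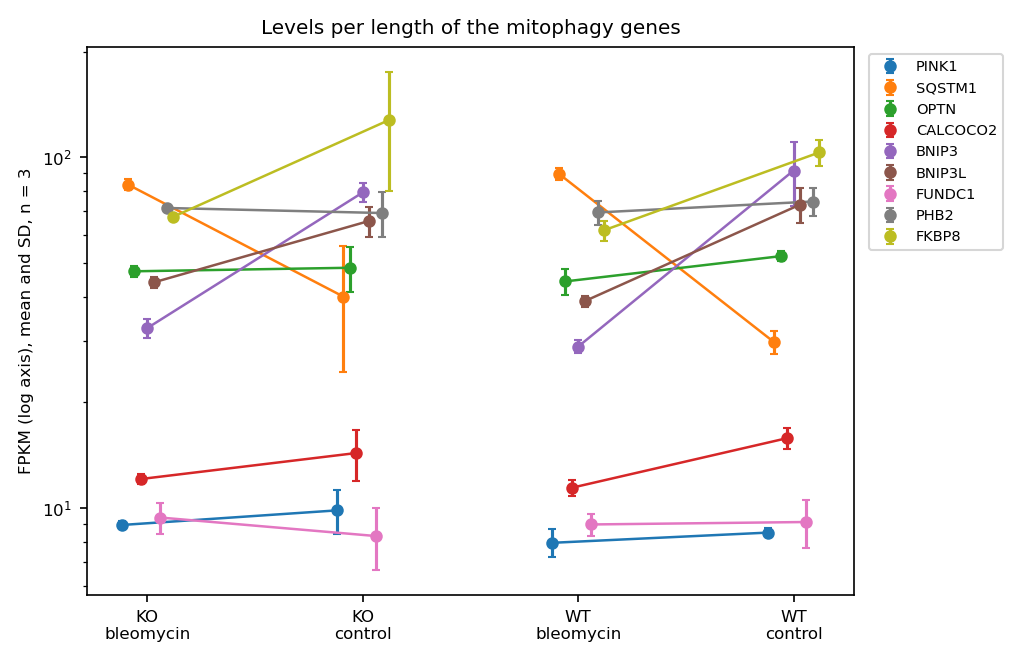
FPKM of the 9 genes on a log axis, as mean and SD of 3 libraries, in KO bleomycin, KO control, WT bleomycin and WT control from left to right. SQSTM1 is highest in both bleomycin groups (83.5 and 89.7 FPKM) and sixth in both control groups (40.03 and 29.7 FPKM), while PINK1 and FUNDC1 stay between 7.95 and 9.84 FPKM.

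Ratios between members shifted with bleomycin. The ratio of BNIP3 to BNIP3L in FPKM was 0.742 ± 0.0669 in KO bleomycin, against 1.21 ± 0.0593 in KO control, and 0.742 ± 0.0116 in WT bleomycin, against 1.24 ± 0.117 in WT control (SD, n = 3 each). BNIP3 therefore exceeded BNIP3L in every control library and lay below it in every bleomycin library. SQSTM1 made up 58.5 ± 0.453% of the FPKM of the 3 soluble receptors in KO bleomycin, against 38.5 ± 12.5% in KO control (52.8% in replicate 2, 31.9% and 30.7% in replicates 1 and 3), and 61.8 ± 1.30% in WT bleomycin, against 30.4 ± 1.08% in WT control. The summed FPKM of the soluble receptors stood to that of the 5 membrane receptors (BNIP3, BNIP3L, FUNDC1, FKBP8 and PHB2) as 0.635 ± 0.0231 in KO bleomycin, against 0.294 ± 0.00396 in KO control. In WT cells this ratio was 0.699 ± 0.0142 with bleomycin, against 0.279 ± 0.0219 in control medium. The 3 libraries of a group never overlapped those of the other medium in these ratios. With 3 libraries against 3 an exact permutation test cannot give a p below 0.1, so none is given.

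Loss of ANT1 was not followed by a called change of any of the 9 genes in either medium. With bleomycin, KO against WT gave 0 of 9 calls by edgeR, DESeq2 and limma, beside 0.0479% of all tested genes called by edgeR. At an unadjusted p under 0.05 it gave 0 members, beside 1103 of the 16702 tested genes. In control medium it also gave 0 of 9 by these tools, beside 0.168% of all tested genes called by edgeR. At an unadjusted p under 0.05 it gave 1 member, SQSTM1, beside 1661 of the tested genes. Leaving out KO control replicate 2 raised these background shares to 1.71% and 1.02% and left the members at 0. With bleomycin the log2 differences of KO over WT lay between -0.10 for SQSTM1 (±2 SE interval -0.48 to 0.28) and 0.18 for BNIP3L (-0.02 to 0.38, edgeR adjusted p = 0.842), with BNIP3 at 0.18 (-0.07 to 0.43) and PINK1 at 0.17 (-0.05 to 0.39). With bleomycin the KO and WT libraries did not overlap for 4 members, SQSTM1 lower and BNIP3, BNIP3L and FKBP8 higher in KO cells, beside 18.6% of all tested genes.

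In control medium the 3 genes with the highest KO over WT values were those raised in KO control replicate 2. SQSTM1 had a log2 difference of 0.43 (±2 SE interval 0.05 to 0.82, edgeR adjusted p = 0.498), FKBP8 of 0.31 (-0.07 to 0.68, adjusted p = 0.563) and PINK1 of 0.21 (-0.0048 to 0.43, adjusted p = 0.521). Without that library the values were 0.07, -0.04 and 0.09. The other 6 members lay between -0.21 for BNIP3 (-0.45 to 0.04) and -0.11 for PHB2 (-0.33 to 0.11), and between -0.15 for BNIP3 and 0.0095 for OPTN without it. PINK1 alone was separate between the genotypes in control medium, higher in KO, beside 12.2% of all tested genes.
Set against the mean of the other KO controls, KO control replicate 2 held 1.87 times their SQSTM1, 1.82 times their FKBP8 and 1.27 times their PINK1. It held 0.899 times their BNIP3 and 0.841 times their BNIP3L. For PHB2, OPTN, CALCOCO2 and FUNDC1 the ratio was between 0.726 and 0.772.

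**Figure D4:**
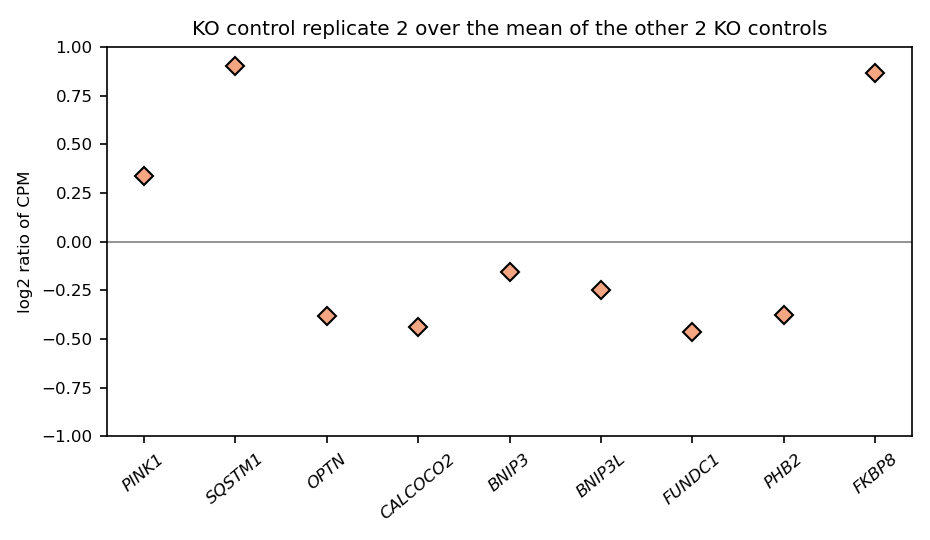
Log2 ratio of CPM in KO control replicate 2 over the mean of KO control replicates 1 and 3 for each of the 9 genes; 0 means no difference. SQSTM1 (ratio 1.87), FKBP8 (1.82) and PINK1 (1.27) lie above 0 and the other 6 below it, down to 0.726 for FUNDC1.

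The test of the difference between the bleomycin responses of KO and WT cells, the interaction, called 0 of 9 members and 0% of all tested genes by edgeR, with 2 members and 770 genes at an unadjusted p under 0.05. DESeq2 called 0 members and 4 genes. BNIP3L had an interaction of 0.33 (±2 SE interval 0.06 to 0.61, unadjusted p = 0.0322) and BNIP3 of 0.38 (0.03 to 0.74, unadjusted p = 0.0492), both with an edgeR adjusted p of 0.899. The sign means that the falls of this pair were smaller in KO than in WT cells, by an amount that did not pass the correction. SQSTM1 had an interaction of -0.53 (-1.07 to 0.01), which was -0.17 without KO control replicate 2, and that of FKBP8 was -0.18 with it and 0.17 without it. For OPTN, CALCOCO2, FUNDC1 and PHB2 the interaction lay between 0.15 and 0.22 with that library and between 0.038 and 0.093 without it, and for PINK1 it was -0.04 with it and 0.08 without it.

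Other genes of the pathway were read from 6 lists. Over all tested genes, edgeR called 43.2% in KO and 43.5% in WT cells with bleomycin. The share called in the lists ran from 23.8% to 42.9% in KO cells and from 16.7% to 50% in WT cells, where the transcription factors alone lay above that of all genes; the differences were not tested. Of the 21 tested genes of the ubiquitin route and PINK1 processing, 2 rose and 3 fell in KO cells and 2 rose and 2 fell in WT cells with bleomycin, with median log2 fold changes of -0.25 and -0.11. TBK1, the kinase that phosphorylates OPTN and SQSTM1, rose to 58.1 ± 3.21 CPM in KO bleomycin, against 40.3 ± 3.54 CPM in KO control, and to 60.5 ± 1.82 CPM in WT bleomycin, against 40.5 ± 2.50 CPM in WT control (edgeR adjusted p = 0.000559 and 0.000219). USP15, a deubiquitinase that holds back mitophagy, rose by 0.62 in KO and 0.89 in WT cells on the log2 scale (edgeR adjusted p = 0.000144 and 5.00e-06). RHOT1, the mitochondrial transport GTPase that is tagged and removed in this route, fell by 0.59 in KO and 0.79 in WT cells (adjusted p = 0.00323 and 0.00034).

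Of 18 other mitophagy receptors and regulators, 3 rose and 3 fell in KO cells and 4 rose and 3 fell in WT cells, with medians of -0.01 and -0.03. SPATA18 (MIEAP), a p53 target reported to act in mitochondrial quality control, rose to 85.5 ± 6.93 CPM in KO bleomycin, against 2.73 ± 0.297 CPM in KO control, and to 91.6 ± 2.05 CPM in WT bleomycin, against 1.81 ± 0.490 CPM in WT control. That is 31.3-fold in KO cells and 50.1-fold in WT cells (edgeR adjusted p = 1.67e-10 and 4.98e-11), on total counts of 4553 against 139 and 5086 against 110. NLRX1, an LC3-binding protein of the mitochondrial matrix, rose 2.18-fold in KO and 3.01-fold in WT cells (edgeR adjusted p = 0.000341 and 1.64e-05). PPTC7, a mitochondrial phosphatase that holds BNIP3 and BNIP3L proteins down, fell to 36.9 ± 1.35 CPM in KO bleomycin, against 66.4 ± 17.03 CPM in KO control, and to 37.2 ± 1.46 CPM in WT bleomycin, against 55.9 ± 1.60 CPM in WT control (adjusted p = 0.000333 and 0.00403). CSNK2A1, a catalytic subunit of casein kinase 2, which phosphorylates FUNDC1, fell by 0.44 in KO and 0.54 in WT cells on the log2 scale (adjusted p = 0.00593 and 0.00133).

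Among the 6 tested genes of the ATG8 family, 2 rose in KO cells and 1 in WT cells and none fell, with medians of 0.34 and 0.28. MAP1LC3B, the LC3 that is used to mark autophagosomes, reached 67.9 ± 5.19 CPM in KO bleomycin, against 30.2 ± 7.08 CPM in KO control, and 69.4 ± 4.99 CPM in WT bleomycin, against 35.3 ± 2.37 CPM in WT control. This was 2.24-fold in KO and 1.97-fold in WT cells (edgeR adjusted p = 3.63e-05 and 0.000125). MAP1LC3A passed in KO cells, with a log2 fold change of 0.55, and had 0.23 in WT cells (adjusted p = 0.00188 and 0.13), and the interaction was not called for any list gene. Of 30 genes of the core autophagy machinery, 3 rose and 7 fell in KO cells and 6 rose and 6 fell in WT cells, with medians of -0.06 and -0.01. WIPI1, which binds the phosphoinositide of the forming autophagosome, rose 2.58-fold in KO and 2.04-fold in WT cells (edgeR adjusted p = 8.13e-05 and 0.000595). VAMP8, a SNARE of autophagosome fusion, rose by 0.57 and 0.70 on the log2 scale (adjusted p = 0.0062 and 0.00149). RB1CC1 (FIP200), a scaffold of the initiating kinase complex, fell by 0.60 and 0.34, and ATG4C, a protease that processes ATG8 proteins, fell by 0.58 and 0.75, in KO and in WT cells, all past the threshold.

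In the list of mitochondrial fission and fusion, 2 of 14 genes rose and 4 fell in KO cells, and 2 rose and 3 fell in WT cells, with medians of -0.17 and -0.12. The paralogous mitofusins, which fuse outer membranes, went opposite ways: MFN1 fell by 0.81 in KO and 0.69 in WT cells on the log2 scale (edgeR adjusted p = 1.74e-05 and 5.86e-05), and MFN2 rose by 0.49 and 0.59 (adjusted p = 0.000703 and 0.000133). GDAP1, an outer membrane protein that promotes fission, rose 2.56-fold in KO and 2.87-fold in WT cells (edgeR adjusted p = 2.16e-05 and 5.34e-06). Of 14 transcription factors reported to drive members, 3 rose and 2 fell in KO cells and 4 rose and 3 fell in WT cells, with medians of -0.11 and -0.16. EPAS1 (HIF-2 alpha) rose to 619 ± 22.9 CPM in KO bleomycin, against 277 ± 44.5 CPM in KO control, and to 607 ± 37.9 CPM in WT bleomycin, against 353 ± 44.1 CPM in WT control (adjusted p = 8.78e-06 and 0.000209). HIF1A rose by 0.69 in KO and 0.74 in WT cells on the log2 scale (edgeR adjusted p = 0.00195 and 0.00106). BNIP3, known as a target of HIF-1, fell, and a link between these mRNA levels was not tested. ATF4, the main factor of the integrated stress response, rose by 0.50 and 0.70 (adjusted p = 0.00232 and 0.00017). FOXO1 rose by 0.84 in WT cells (adjusted p = 0.000211) and had 0.29 in KO cells (adjusted p = 0.105).

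No gene of these 6 lists was called between KO and WT cells in either medium or for the interaction. Without KO control replicate 2, more genes passed with bleomycin over all tested genes (48.4% in KO and 56.6% in WT cells) and in the lists: 7 of 21 in KO and 12 of 21 in WT cells for the ubiquitin list, 8 and 11 of 18 for the other receptors, 3 and 4 of 6 for ATG8, 15 and 17 of 30 for core autophagy, 8 and 10 of 14 for fission and fusion, and 8 and 11 of 14 for the transcription factors, each pair being KO and then WT cells.

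**Figure D5:**
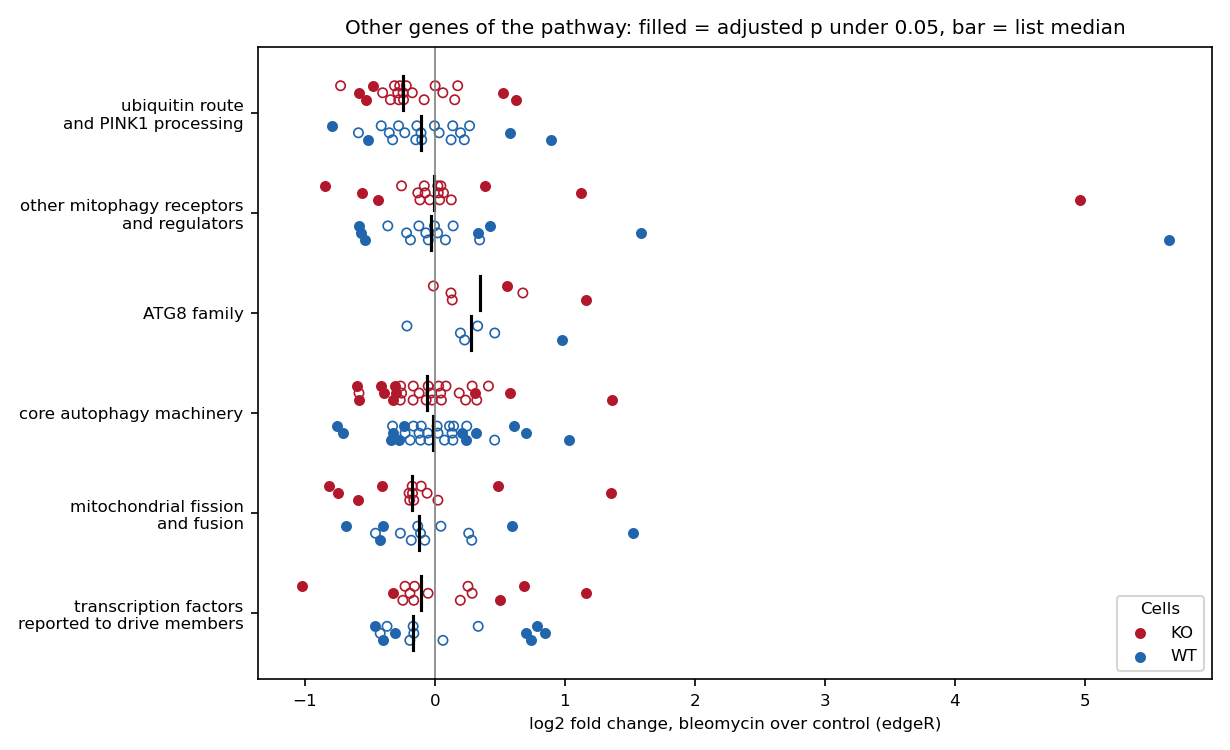
Log2 fold change of bleomycin over control for the tested genes of the 6 lists, in KO and WT cells; filled points have an edgeR adjusted p under 0.05 and the bar is the median of the list. SPATA18 lies far to the right of all others, at 4.97 in KO and 5.65 in WT cells, and the medians lie between -0.25 and 0.34.

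Likeness was measured as Pearson's r of log2 CPM over the 12 libraries, among 11617 protein-coding genes whose log2 CPM averaged 1 or more; the libraries share groups and scaling, so r describes these libraries only. The nearest genes to SQSTM1 were RAP2B (r = 0.998) and TRIB3 (0.997). BNIP3 was nearest to LDHA (0.996) and RUVBL2 (0.991), and BNIP3L to RNF4 (0.990) and ENO1 (0.989), LDHA and ENO1 being enzymes of glycolysis. FKBP8 followed HNRNPM (0.998) and BCL2L12 (0.997), and CALCOCO2 followed LANCL1 (0.987) and WDR45B (0.987). OPTN was nearest to LYRM4 (0.953) and PLK2 (0.949), PHB2 to PSMB6 (0.973) and SNRPD2 (0.962), and FUNDC1 to DCTN6 (0.931) and FUT8 (0.924). PINK1 had an r of 0.916 with XKR8, which was 0.811 without KO control replicate 2. Between members, BNIP3 and BNIP3L had the highest r, at 0.984, and SQSTM1 and BNIP3L the lowest, at -0.954.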

How the data were processed

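Poly(A)-selected RNA of 12 Beas-2b libraries was sequenced. The authors deposited raw counts and FPKM per gene; their tools were HISAT2 2.0.5, an aligner, and featureCounts 1.5.0-p3, a read counter, per the submitters' processing notes. Neither genome build nor strand use is stated, and the labels' protocol allows directional and non-directional libraries. Coordinates and exon lengths of the 9 genes equal those of GENCODE 29 on GRCh38. A deposited FPKM equalled the count over length and a library factor, 0.963 to 1.05 times the library total. Every row named a gene (0 left out).

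Counts were tested with edgeR 4.0.16 in R 4.3.3 (filterByExpr, TMM, robust quasi-likelihood) in 1 fit of all 12 libraries and 4 group means, for 5 contrasts, with Benjamini-Hochberg adjustment over 16702 genes. SE is the absolute log2 fold change over the square root of F. Alternatives were RLE factors, DESeq2 1.42.0, other filters, fewer groups, a replicate block, limma 3.58.1 on log2(FPKM + 1) and leaving out each library. The test was checked on simulated data. The main fit did not pair libraries by replicate number.

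The 9 genes, the lists and the rule for naming genes were chosen with earlier results of these data known. The rule took all 9 genes, SLC25A4, up to 3 called genes of each list and bleomycin contrast with the smallest adjusted p, every list gene called between genotypes, the 2 genes most like each member, and overlapping genes and pseudogenes with at least 10 counts. Genes named outside it, such as markers and genes given for both genotypes where the rule took 1, were chosen after their values were seen. A few genes that the lists or the rule take are not reported here. The planned search of protein sequences was not run. A count of 0 allows up to 3 counts.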

Additional observations from a re-analysis of the deposited data

How the results depend on the processing

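No called value of the 9 genes lost its call or changed direction under any alternative run. Of 846 values under alternatives, 826 kept direction and side of the threshold, 4 gained a call and 16, none of them called, changed sign. With bleomycin, edgeR called 4 to 5 members in KO and 5 to 6 in WT cells when single libraries were left out. OPTN also passed in WT cells with only the groups compared in the fit (-0.22, adjusted p = 0.0205). KO against WT in control medium gave 1 member, SQSTM1, with no filter on low counts (0.40, adjusted p = 0.0441). Over all genes, KO against WT in control medium gave 28 calls, and 202 with DESeq2, 321 with no filter, 0 with only the groups compared, 11 with the replicate block, 14 with limma and 0 to 175 with a library left out. KO against WT with bleomycin gave 8, and 75, 81, 312, 4, 28 and 2 to 294 in the same order. The interaction gave 0, with 4 by DESeq2, 13 with no filter and 0 to 9 with a library left out. The cause was not tested. Bleomycin calls over all genes ranged from 5866 to 8319 in KO and 6076 to 9743 in WT cells with a library left out.

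OPTN with bleomycin in KO cells was 0.0019 under the stricter filter (CPM of at least 1 in at least 3 libraries). With a library left out, bleomycin values ran from -0.14 to 0.048 for OPTN and -0.061 to 0.13 for PHB2 in KO cells and -0.14 to 0.053 for FUNDC1 in WT cells. KO over WT with bleomycin ran from -0.0062 to 0.14 for FUNDC1, and in control medium from -0.18 to 0.0095 for OPTN, -0.28 to 0.0023 for FUNDC1, -0.19 to 0.0076 for PHB2 and -0.042 to 0.46 for FKBP8. The interaction ran from -0.11 to 0.081 for PINK1 and -0.32 to 0.17 for FKBP8. Spearman's rho in place of r moved PINK1 with XKR8 to 0.776, and PHB2 with SNRPD2 to 0.839. The pathway lists without KO control replicate 2 were an alternative added after seeing the data. Same-numbered libraries of compared groups had deviations that correlated between -0.128 and 0.109. These values give no sign of pairing by number, and with 3 libraries a group they cannot exclude it. The replicate block changed no call of a member (SQSTM1 in KO cells 1.10, edgeR adjusted p = 0.00102). FUNDC1, at 150 to 310 counts per library, had a CV of 6.86% to 20.1% within groups, in which counting error and spread between libraries were not separated.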

Other observations

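Copies and neighbours of members held few counts compared with the members, with some exceptions. A total of 39 annotated BNIP3 pseudogenes had 400 counts over the 12 libraries, 0.582% of the 68752 counts of BNIP3, and 18 of them had any count. BNIP3P1, the pseudogene with 119 counts, fell with bleomycin in KO cells (8 counts with bleomycin, 49 in control medium, edgeR adjusted p = 0.00399) and in WT cells (14 against 48, adjusted p = 0.0308), as BNIP3 did, and reads of these copies may be split between them. BNIP3P11, with 164 counts, did not pass in either genotype (adjusted p = 0.184 in KO and 0.792 in WT cells).

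PHB2P1, the single annotated pseudogene named for PHB2, had 0 counts, and the 21 named for its relative PHB had 298 counts over the 12 libraries, of which PHBP9 held 224. The 4 pseudogenes named for FUNDC2 had 8 counts in all. FUNDC2, a paralog in the outer mitochondrial membrane, held 14490 counts, against 2783 for FUNDC1, and fell in WT cells with bleomycin (log2 fold change -0.31, edgeR adjusted p = 0.0464), with -0.12 in KO cells (adjusted p = 0.431).

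CCDC3, on the opposite strand to OPTN, shares 147 exon bases with it and rose with bleomycin by 1.03 in KO and 0.93 in WT cells on the log2 scale (edgeR adjusted p = 0.0011 and 0.00187), against values of -0.02 and -0.23 for OPTN. MAP1LC3C, an LC3 gene that was too low to test, had 1 count in KO bleomycin, 7 in KO control, 1 in WT bleomycin and 1 in WT control.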
